A study of Mus musculus with 12 samples.

Results

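The passage of mouse embryos from the 1-cell to the 2-cell stage without Pabpn1l was followed in 4 of the 12 libraries of the study. The 4 libraries were the 2 of Pabpn1l knockout (KO) 2-cell embryos and the 2 of KO 1-cell embryos, chosen by the genotype and stage in their labels, and all 11298 complete gene entries of the expression table were compared between them. The same stages of wild-type (WT) embryos, 2 libraries each, served for a test of whether the KO passage differed, and the remaining 4 libraries held oocytes at the germinal vesicle (GV) stage, 2 from each genotype. All mice were of the C57BL/6 strain. Each library was made by Smart-seq2, a full-length cDNA method for minute samples, from 10 oocytes or embryos. The embryos were grown in KSOM, a culture medium for early mouse embryos, and the oocytes were taken in vivo. The labels do not say whether KO describes the mother, the embryo or both, nor whether replicates were drawn from separate mice or pools. The p-values therefore measure the spread between these libraries, which may be technical. The labels give no age, mating scheme or allele of the knockout.

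A mouse egg is transcriptionally silent when it is fertilised and lives on mRNA stored by the oocyte. This maternal mRNA is shortened at its poly(A) tail and degraded, partly before and partly after the embryo's own genome starts to be transcribed, which in the mouse happens mainly at the 2-cell stage. PABPN1L binds poly(A) tails and is made in oocytes and in embryos of the first cleavage stages. The study's title gives it a role in cytoplasmic mRNA decay in this period, so the comparison addresses late decay and genome activation in embryos that lack it.

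The table gives FPKM (fragments per kilobase of transcript, scaled to the mapped fragments of the library) with no value under 1, and 1 FPKM is called the floor. A gene listed at the floor may lie anywhere at or below it. Each embryo column is FPKM times 1 number per library, 0.130 and 0.121 in KO 2-cell and 0.432 and 0.552 in KO 1-cell embryos, and the basis of this number is not given in the sources used here. The deposited FPKM of all genes summed to 63823 ± 381 in KO 2-cell and 261008 ± 34490 in KO 1-cell embryos (SD, n = 2 each). The KO 2-cell total was 24.5% of the KO 1-cell total, and the WT 2-cell total was 49.97% of the WT 1-cell total. Undoing the number gave sums above the floor of 440302 and 474646 in KO 2-cell against 539810 and 512360 in KO 1-cell libraries. By the labels a KO 2-cell library held 10 embryos of 2 cells and a KO 1-cell library 10 embryos of 1 cell, so the lower total goes with more cells by label. The totals differed far less once the number was undone. FPKM is already scaled to the mapped fragments of a library, so its sums carry little of the amount of RNA. These sums cannot show whether the deposited fall in total was real. The cells that reached each library were not counted. An effect of the number itself, fewer recovered cells and less RNA per cell cannot be told apart. For this reason every change is given on the deposited scale, which keeps differences in total, and on a centred scale. On the centred scale each library is divided so that the median log2 FPKM of 4390 genes, those above the floor in all 4 KO embryo libraries, is the same. A change there is relative to the typical gene still detected at both stages, not to the total.

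The 2 KO 2-cell libraries were not alike in genes that embryos switch on. Their log2 FPKM correlated with r = 0.969 across genes, against 0.983 for the 2 KO 1-cell libraries and 0.770 to 0.846 between the stages (genes are not independent replicates). Of 4485 genes above the floor in both KO 2-cell libraries, 2328 were higher in replicate 1, with a median ratio of 1.01 between the replicates. A set of 115 genes was defined from WT libraries alone as gained at the 2-cell stage, at the floor in both WT 1-cell and at least 5 FPKM in both WT 2-cell libraries. Of these, 45 were above the floor in both KO 2-cell libraries, and 44 of the 45 were higher in replicate 1, with a median ratio of 2.26. For genes described in detail the values of both libraries are therefore printed.

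The libraries carried the transcripts of oocytes and early embryos. All 12 marker genes of these cells were above the floor in both KO 1-cell libraries and 11 in both KO 2-cell libraries, where Mos was at the floor. Their FPKM above the floor summed to 1190.4 and 1215 in KO 2-cell and to 6880 and 8125 in KO 1-cell libraries. Of 8 cumulus and granulosa cell markers, 5 were at the floor in all 4 KO embryo libraries, among them Fshr, Inha and Gja1. Others were detected: Cyp19a1 had 9.21 and 11.8 FPKM and Esr2 had 10.1 and 12.3 FPKM in KO 1-cell libraries. In KO 2-cell libraries Cyp19a1 was at the floor and Esr2 had 1.22 and 1.65 FPKM. The list of 8 summed to 1.22 and 1.65 FPKM in KO 2-cell and to 21.7 and 26.9 FPKM in KO 1-cell libraries. The 3 sperm markers summed to 0 in both KO 2-cell libraries and to 5.40 and 6.03 FPKM in KO 1-cell libraries, from Prm2 and Ldhc, with Odf1 at the floor in all 4. The 7 blood and immune cell markers summed to 4.20 and 5.02 FPKM in KO 2-cell and to 6.77 and 13.1 FPKM in KO 1-cell libraries, with Hba-a2 at the floor in all 4.

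Pabpn1l itself was low but not at the floor throughout in KO embryos. It had 1.00 and 1.90 FPKM in KO 2-cell and 2.57 and 4.55 FPKM in KO 1-cell embryos. In WT it averaged 1.09 ± 0.13 FPKM in 2-cell and 14.3 ± 2.95 FPKM in 1-cell embryos (SD, n = 2 each). The KO 1-cell values were thus below both WT 1-cell values, while the 2-cell values overlapped. The table has 1 value for the whole gene and does not show whether the fragments lie in a part that the knockout removes.

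On the deposited scale, which includes the number per library, nearly everything went down between the KO stages. A linear model across genes (limma, Benjamini-Hochberg adjusted p under 0.05) called 6897 of 10809 tested genes lower in KO 2-cell than in KO 1-cell embryos, or 63.8%, and 80 higher, or 0.74%. The median change over all tested genes was -0.91 on the log2(FPKM + 1) scale, a scale that understates the change of low genes. For the 4390 genes detected above the floor in each of the 4 libraries, the median ratio of mean FPKM was 3.81-fold lower in KO 2-cell embryos, and 100 of them, or 2.28%, had a ratio above 1. A further 2794 genes were above the floor in both KO 1-cell and at it in both KO 2-cell libraries. Most of these were weak at the 1-cell stage, with a median of 2.82 FPKM, and 204 averaged at least 10 FPKM there. In the other direction 71 genes were at the floor in both KO 1-cell and above it in both KO 2-cell libraries. The floor is not equal between the stages. Once centred, 1 FPKM lies at 2.08 and 2.18 in KO 2-cell and at 0.53 and 0.41 in KO 1-cell libraries. A weak gene at an unchanged centred level can thus count as lost, and a weak gain can go unseen. Quantile normalisation, which forces all libraries to 1 distribution, gave 4093 higher and 3173 lower calls. Of the 6977 calls on the deposited scale 4585 were also called after it, 3214 of them in the same direction, so the split depends on the deposited scale. The 80 higher genes were 38 without KO 2-cell replicate 1, 172 without KO 2-cell replicate 2 and 52 without KO 1-cell replicate 2.

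On the centred scale, where 6207 genes were tested, 1627 were called higher in KO 2-cell than in KO 1-cell embryos (26.2%) and 1661 lower (26.8%). Of these, 615 and 778 changed at least 2-fold on the log2(centred FPKM + 1) scale. Of the 1627 genes, 1259 were called lower on the deposited scale: their FPKM fell by less than that of the typical gene. Another 72 were called higher on both scales, and all 1661 centred lower calls were also lower as deposited. The share of higher calls among centred calls was 49.5%. It was 35.2% when the centring used genes above 5 FPKM, 36.5% with median-ratio factors, 38.1% after undoing the number per library and 72.5% when values at the floor were not brought to a common floor. That last setting moved the median of all tested genes to 0.41, with 4414 higher and 1677 lower calls.

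**Figure D1:**
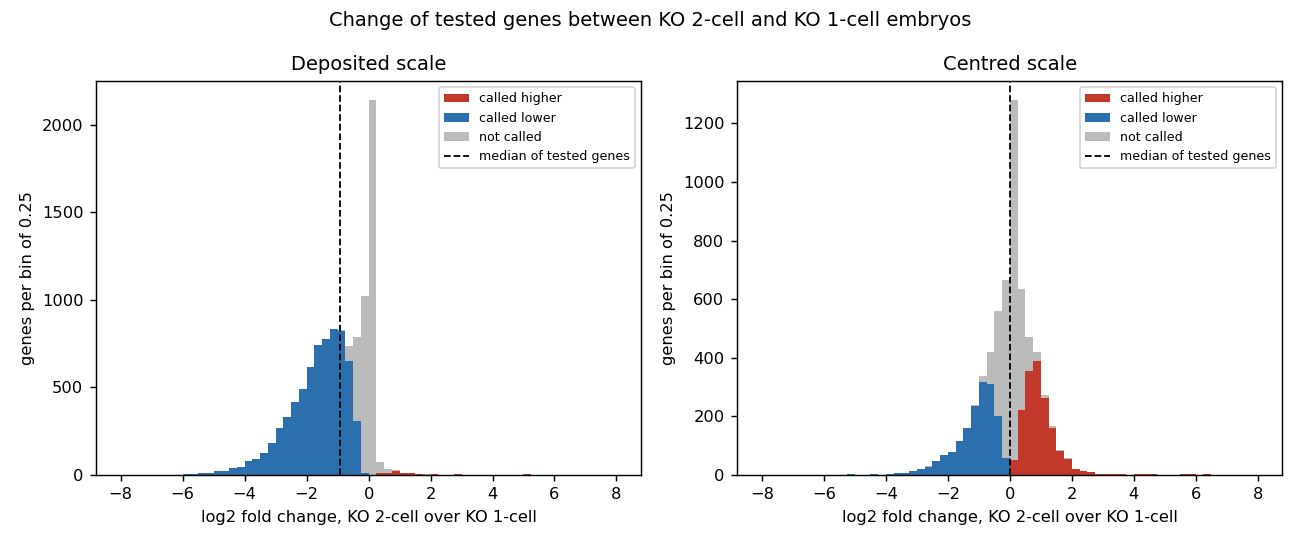
Number of tested genes (y axis) by log2 fold change of KO 2-cell over KO 1-cell embryos (x axis), as deposited on the left and centred on the right. Colours mark genes called higher (red), called lower (blue) or not called (grey), and the dashed line is the median over tested genes, which lies at -0.91 as deposited and at 0 once centred.

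The genes called lower and higher differed in their level before the 2-cell stage. The 1661 lower genes had a median of 50.7 FPKM in KO GV oocytes, 19.3 FPKM in KO 1-cell and 1.49 FPKM in KO 2-cell embryos. The 1627 higher genes had a median of 17.8 FPKM in KO GV oocytes, 9.95 FPKM in KO 1-cell and 5.05 FPKM in KO 2-cell embryos. Over all tested genes the medians were 27.6 FPKM in KO GV, 11.2 FPKM in KO 1-cell and 2.31 FPKM in KO 2-cell. The KO 1-cell and KO 2-cell values also made the calls. A weak gene that falls reaches the floor and cannot be called lower by much, so these levels are partly set by the floor. Almost all higher genes were already present before, as were most tested genes. At the floor in both KO 1-cell libraries were 42 of the 1627, beside 372 of all 6207 tested genes.

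The largest falls included transcripts of the oocyte. H1foo, the linker histone of the oocyte, had 7.08 and 8.76 FPKM in KO 2-cell against 1053 and 1691 FPKM in KO 1-cell embryos, a centred log2 fold change of -5.14 ± 0.32 (SE, limma adjusted p = 0.000167). Zar1, which binds and stores maternal mRNA, had 4.77 and 5.60 FPKM in KO 2-cell against 209 and 487 FPKM in KO 1-cell embryos. Rgs2, a regulator of G protein signalling, had 3.45 and 2.86 FPKM in KO 2-cell against 305 and 337 FPKM in KO 1-cell embryos, or -4.30 ± 0.14 centred (limma adjusted p = 0.000146). The 2 stages did not overlap for any of these, and the gap between them was far wider than that between replicates. The other genes with the lowest centred change among those above the floor in all 4 libraries were AU022751 (-3.84), Psma5 (-3.74), Ube2t (-3.67), Psma2 (-3.61) and Cnbp (-3.60), all called.

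Of the genes lost to the floor, the 6 with the most FPKM at the 1-cell stage came from several roles. Mos, the kinase that holds the egg at metaphase of meiosis II, was at the floor in both KO 2-cell and had 30.8 and 43.6 FPKM in KO 1-cell embryos. Bub1b, a spindle checkpoint kinase, was at the floor in KO 2-cell and had 41.1 and 61.4 FPKM in KO 1-cell embryos. Cryl1, a crystallin-related metabolic enzyme, was at the floor in KO 2-cell and had 42.6 and 81.3 FPKM in KO 1-cell embryos. Bms1, a ribosome assembly GTPase, Dclre1a, a DNA cross-link repair nuclease, and Nup107, a nuclear pore scaffold protein, had 28.2 to 49.8 FPKM in KO 1-cell embryos and were at the floor in both KO 2-cell libraries. All 6 were called lower on both scales.

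Decay in WT embryos can be used to choose genes without looking at KO libraries. In WT, 24 genes had at least 10 FPKM in both 1-cell libraries and were at the floor in both 2-cell libraries. In KO embryos all 24 were called lower on the centred scale, beside 26.8% of all tested genes. They were at the floor in both KO 2-cell libraries for 11 genes and above it in both for 8. Their median was 1.00 FPKM in each KO 2-cell library against 27.7 and 32.6 FPKM in KO 1-cell libraries, and the WT 1-cell medians were 16.9 and 14.4 FPKM. The median over all tested genes was 11.2 FPKM in KO 1-cell embryos, so the 24 genes had more room to fall.

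The oocyte-specific and maternal-effect genes as a list went the same way. Of 67 tested, 46 were called lower and 5 higher on the centred scale, with a median of -1.22 against 0 over all tested genes. The shares over all tested genes were 26.8% lower and 26.2% higher. Other ways of centring gave 48 to 51 lower and 4 to 9 higher. As deposited, 64 of 69 were lower and 1 was higher, beside 63.8% lower over all tested genes. The F-box family of the oocyte stood low, with Fbxw28 at 6.88 and 8.37 FPKM in KO 2-cell against 346 and 357 FPKM in KO 1-cell embryos, and Fbxw18 at 8.60 and 9.90 FPKM in KO 2-cell against 401 and 423 FPKM in KO 1-cell embryos. These paralogs are near-identical, so fragments may have been split between them. Gdf9, an oocyte growth factor, had 26.5 and 33.5 FPKM in KO 2-cell against 494 and 1053 FPKM in KO 1-cell embryos, with a centred change of -2.40 ± 0.29 (limma adjusted p = 0.000917).

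Not all maternal transcripts fell by more than the typical gene. Dazl, an RNA-binding protein that activates translation in oocytes, had 54.8 and 77.9 FPKM in KO 2-cell against 197 and 205 FPKM in KO 1-cell embryos. It fell on the deposited scale (-1.61, limma adjusted p = 0.000103), whereas its centred change of 0.55 ± 0.23 did not pass the test (limma adjusted p = 0.0812). Without KO 2-cell replicate 1 the centred change was 0.86 and passed (limma adjusted p = 0.0225), and under quantile normalisation the deposited change was 0.42. Btg4, which recruits the CCR4-NOT deadenylase, had 650.3 and 612 FPKM in KO 2-cell against 2101 and 2283 FPKM in KO 1-cell embryos, a centred change of 0.38 that was not called (limma adjusted p = 0.279). Bmp15, the partner of Gdf9, had 124 and 146 FPKM in KO 2-cell against 754 and 824 FPKM in KO 1-cell embryos and a centred change of -0.37 that was not called (limma adjusted p = 0.142). The paralogs Omt2a and Omt2b, oocyte-specific transcripts, were called higher once centred. Omt2a had 909 and 772 FPKM in KO 2-cell against 1072 and 1044 FPKM in KO 1-cell embryos.

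The machinery that acts on maternal mRNA was split. Of 42 tested genes of deadenylation and mRNA decay, 10 were called higher and 13 lower on the centred scale, close to the shares over all genes, and none of 50 was higher as deposited. With no common floor 18 of 50 were higher and 14 lower, beside 4414 higher and 1677 lower of 8627 over all genes tested that way. Exosc2, a cap subunit of the RNA exosome, had 15.3 and 11.6 FPKM in KO 2-cell against 12.4 and 10.8 FPKM in KO 1-cell embryos, a centred change of 2.19 ± 0.22 (limma adjusted p = 0.000481). Exosc7, another exosome subunit, had 2.72 and 3.12 FPKM in KO 2-cell against 71.6 and 74.1 FPKM in KO 1-cell embryos, a centred change of -2.29 ± 0.16 (limma adjusted p = 0.000211). Subunits of 1 complex thus had centred changes of opposite sign. Cnot6, a catalytic subunit of CCR4-NOT, had a centred change of 1.65, and Dcp1a, an activator of decapping, had a centred change of -2.16.

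Of 28 tested genes of translational control and cytoplasmic polyadenylation, 13 were called higher and 8 lower on the centred scale. The shares over all tested genes were 26.2% higher and 26.8% lower. With the set above 5 FPKM the counts were 8 and 10, so no direction is given for the list. Ybx1 and Ybx2, which package mRNA, were among the higher genes. Ybx2 had 11.9 and 11.3 FPKM in KO 2-cell against 14.8 and 15.02 FPKM in KO 1-cell embryos, or 1.68 ± 0.20 centred (limma adjusted p = 0.000830). Stau1, an mRNA-binding protein, had 2.69 and 4.15 FPKM in KO 2-cell against 52.9 and 83.4 FPKM in KO 1-cell embryos, or -1.98 ± 0.24 centred.

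Of the 8 poly(A)-binding proteins and interactors, 2 were called higher and 3 lower once centred, beside 26.2% and 26.8% of all tested genes. Pabpn1, the nuclear relative of Pabpn1l, had 10.3 and 9.78 FPKM in KO 2-cell against 21.5 and 25.3 FPKM in KO 1-cell embryos, a centred change of 0.90 ± 0.15 (limma adjusted p = 0.00320). Pabpc1, the main cytoplasmic form in somatic cells, had 2.91 and 1.63 FPKM in KO 2-cell against 1.45 and 1.51 FPKM in KO 1-cell embryos. Paip2, an inhibitor of cytoplasmic poly(A)-binding protein, had 22.7 and 24.1 FPKM in KO 2-cell and 200.2 and 200.5 FPKM in KO 1-cell embryos, or -0.90 ± 0.17 centred (limma adjusted p = 0.00457).

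**Figure D2:**
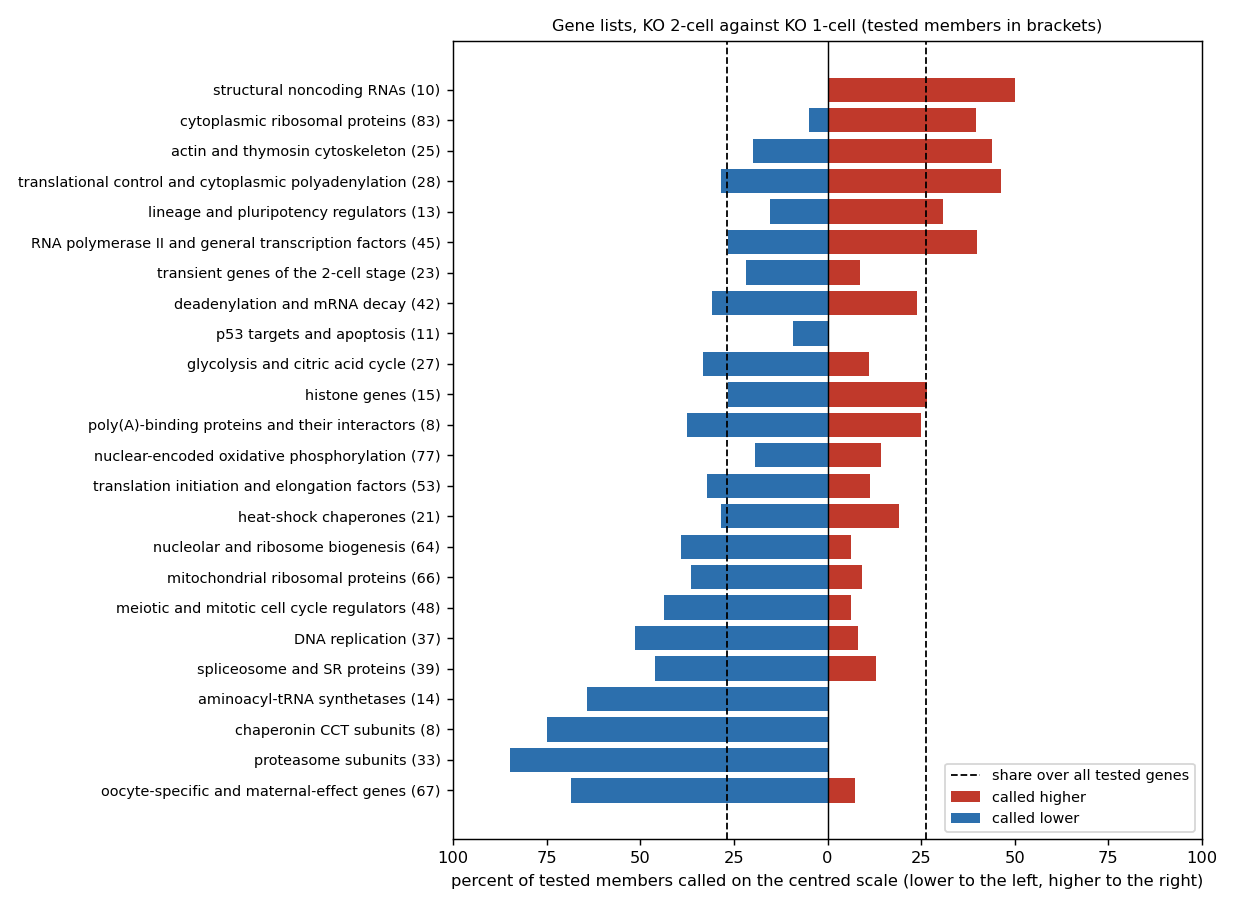
Percent of the tested members of each gene list called higher (bars to the right) or lower (bars to the left) in KO 2-cell than in KO 1-cell embryos on the centred scale, with the number tested in brackets. The dashed lines mark the shares over all tested genes, 26.2% and 26.8%. Proteasome subunits and oocyte-specific genes extend furthest left among lists of more than 30 tested genes.

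Proteasome subunits were low as a group. Of 33 tested, 28 were called lower and 0 higher on the centred scale, with a median of -1.21, and the alternatives gave 28 to 30 lower and at most 1 higher. The shares over all tested genes were 26.8% lower and 26.2% higher. As deposited, 33 of 35 were lower, beside 63.8% of all tested genes. Psma5, a subunit of the outer ring of the 20S core, had 2.60 and 1.61 FPKM in KO 2-cell against 144 and 159 FPKM in KO 1-cell embryos. Psma2, of the same ring, had 17.6 and 19.5 FPKM in KO 2-cell against 1088 and 1010 FPKM in KO 1-cell embryos. Psmc5, an ATPase of the regulatory particle, was at the floor in both KO 2-cell and had 21.5 and 29.7 FPKM in KO 1-cell embryos.

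Several other housekeeping complexes had more lower than higher calls, beside background shares of 26.8% lower and 26.2% higher over all tested genes. All 8 subunits of the chaperonin CCT, which folds actin and tubulin, were tested, with 6 lower and 0 higher and a median of -0.87. Of 14 aminoacyl-tRNA synthetases, which charge tRNA, 9 were lower and 0 higher. Of 37 tested genes of DNA replication, 19 were lower and 3 higher, among them Rpa3, of the single-strand binding complex, at 7.09 and 5.88 FPKM in KO 2-cell against 258 and 246 FPKM in KO 1-cell embryos. Of 39 spliceosome genes, 18 were lower and 5 higher. Snrpd3, a core protein of the splicing particles, had 4.78 and 3.78 FPKM in KO 2-cell against 187 and 245 FPKM in KO 1-cell embryos. Of 48 meiotic and mitotic regulators, 21 were lower and 3 higher, and Aurkc, the Aurora kinase of meiosis, had 6.45 and 9.02 FPKM in KO 2-cell against 259 and 308 FPKM in KO 1-cell embryos. Of 66 mitochondrial ribosomal proteins 24 were lower and 6 higher. Of 53 translation factors 17 were lower, not far from the background share, and 6 higher. With no common floor 25 mitochondrial ribosomal proteins were lower and 15 higher, and 17 translation factors were lower and 13 higher. Over all genes tested that way, 1677 were lower and 4414 higher of 8627. Of 77 oxidative phosphorylation genes 15 were lower and 11 higher, both under the background shares, and with no common floor 19 were lower and 21 higher. Of 27 glycolysis and citric acid cycle genes 9 were lower, not far from the background share, and 3 higher. Of 21 heat-shock chaperones 6 were lower, near the background share, and 4 higher. With no common floor 11 glycolysis and citric acid cycle genes were lower and 8 higher, and 7 heat-shock chaperones were lower and 9 higher.

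Cytoplasmic ribosomal proteins had mainly higher calls. Of 83 tested, 33 were called higher and 4 lower on the centred scale, with a median of 0.84, and other ways of centring gave 23 to 51 higher and 7 to 8 lower. Over all tested genes 26.2% were higher and 26.8% lower. The 51 came with no common floor, where 4414 of 8627 genes were higher. As deposited, 57 were lower and 2 higher, with a share of lower calls near the 63.8% of all tested genes. On the centred scale 46 were not called. Rps27a, a fusion of ubiquitin and a small-subunit protein, had 13.5 and 6.88 FPKM in KO 2-cell against 4.89 and 3.78 FPKM in KO 1-cell embryos, or 2.67 ± 0.27 centred (limma adjusted p = 0.000520). Rpl23a, a large-subunit protein, had 17.1 and 5.02 FPKM in KO 2-cell against 3.78 and 5.41 FPKM in KO 1-cell embryos, so the stages overlapped as deposited. Replicate 1 of KO 2-cell was the higher for both. Ribosomal protein genes have many processed pseudogenes, and fragments may have been shared with them.

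Genes of the transcription machinery were also split. Of 45 tested RNA polymerase II and general transcription factor genes, 18 were called higher and 12 lower. With the set above 5 FPKM the counts were 14 and 16. Polr2d, a polymerase subunit, had 7.41 and 11.2 FPKM in KO 2-cell against 321 and 367 FPKM in KO 1-cell embryos, or -2.99 ± 0.24 centred, and Gtf2b, the initiation factor TFIIB, had 13.3 and 19.9 FPKM in KO 2-cell against 505 and 499.7 FPKM in KO 1-cell embryos. Of 64 genes of the nucleolus and ribosome assembly, 25 were lower and 4 higher. The shares over all tested genes were 26.8% lower and 26.2% higher. With no common floor 33 of 76 were higher and 23 lower, with a median of 0.11. Over all genes tested that way 4414 of 8627 were higher and 1677 lower, with a median of 0.41. The counts of this list thus depend on the floor, as do those over all genes. Of 15 tested histone genes 4 were higher and 4 lower, and 13 and 4 of 21 with no common floor. Of 11 p53 targets and apoptosis genes 1, Trp53 itself, was lower and 0 higher. With no common floor 11 of 16 were higher and 1 lower, in the setting where 4414 of 8627 genes were higher.

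Few genes rose from the floor between the KO stages, a count limited by the higher centred floor of the KO 2-cell libraries. The 71 genes above the floor in both KO 2-cell libraries and at it in both KO 1-cell libraries had a median of 2.49 FPKM, and 5 averaged at least 10 FPKM. Of the 71, 31 were also at the floor in both KO GV libraries and 35 were above it in both. The 6 highest were Mt2, Tmsb4x, Mt1, Rnu11, Cstb and Ctsl. Since the 1-cell values are at the floor, no fold change is given for them.

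The metallothioneins Mt1 and Mt2, small proteins that bind zinc and copper, lie next to each other in the genome and appeared together. Mt2 had 51.3 and 16.4 FPKM in KO 2-cell embryos and was at the floor in both KO 1-cell libraries. Mt1 had 41.1 and 6.61 FPKM in KO 2-cell embryos and was at the floor in both KO 1-cell libraries. For both genes replicate 1 was the higher KO 2-cell library, by more than the median ratio of 2.26 of the genes gained in WT. The WT means were 91.8 FPKM for Mt2 and 121 FPKM for Mt1 at the 2-cell stage. Their promoters are shown because they are the pair of neighbouring genes in the gained group. The 300 bases run from 250 before to 50 after the start of transcription in RefSeq, in build GRCm38.p6 and not in the build of the expression table, on the plus strand at chr8:94178839-94179138 for Mt1 and chr8:94172368-94172667 for Mt2. Capitals mark the core of the metal response element, the site of the zinc-sensing factor MTF1, searched as TGCACNC and TGCGCNC on both strands.
Mt1: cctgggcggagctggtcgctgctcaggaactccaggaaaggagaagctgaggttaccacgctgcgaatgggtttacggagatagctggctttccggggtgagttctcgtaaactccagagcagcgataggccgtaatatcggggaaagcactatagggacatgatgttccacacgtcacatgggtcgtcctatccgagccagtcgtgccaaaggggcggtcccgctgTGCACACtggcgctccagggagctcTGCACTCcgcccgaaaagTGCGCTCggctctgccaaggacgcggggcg
Mt2: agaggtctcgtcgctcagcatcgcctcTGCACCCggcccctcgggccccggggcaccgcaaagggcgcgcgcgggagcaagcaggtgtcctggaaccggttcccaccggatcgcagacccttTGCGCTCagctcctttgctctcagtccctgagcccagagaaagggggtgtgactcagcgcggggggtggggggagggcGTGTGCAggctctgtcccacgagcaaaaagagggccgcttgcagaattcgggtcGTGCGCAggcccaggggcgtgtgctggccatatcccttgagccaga
The Mt1 window holds 3 matches and the Mt2 window 4. Of all promoter windows of this length, 25.7% hold at least 1 match, 1.97% at least 3 and 0.518% at least 4. A match is a description of the sequence and says nothing about binding in these embryos.

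Tmsb4x, which encodes the actin-binding peptide thymosin beta 4, had 31.2 and 21.1 FPKM in KO 2-cell embryos and was at the floor in both KO 1-cell libraries. It averaged 1.47 FPKM in KO GV oocytes and 3.74 FPKM in WT 2-cell embryos, and was at the floor in WT 1-cell embryos. Both KO 2-cell values were thus above those of the other 10 libraries of the study. Thymosin beta 4 is also abundant in blood cells. Lyz2, a lysozyme of myeloid cells, was the 1 blood marker that behaved alike, with 2.33 and 2.70 FPKM in KO 2-cell libraries and the floor in the other 10 libraries of the study. Hba-a2, Cd68 and Pecam1 were at the floor in both KO 2-cell libraries, S100a8 and S100a9 reached at most 1.17 FPKM there, and Lyz1 had 1.87 FPKM in replicate 1 only. The part of other cells in the Tmsb4x values was not tested.

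The other 3 of these 6 genes were Rnu11, Cstb and Ctsl. Rnu11, the U11 RNA of the minor spliceosome, had 17.3 and 11.3 FPKM in KO 2-cell and the floor in KO 1-cell and in all WT embryo libraries. Cstb, an inhibitor of cathepsins, had 18.4 and 8.66 FPKM in KO 2-cell embryos, and Ctsl, a cathepsin, had 12.5 and 4.95 FPKM there, both with the floor in KO 1-cell libraries. All 6 genes were called higher on both scales.

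**Figure D3:**
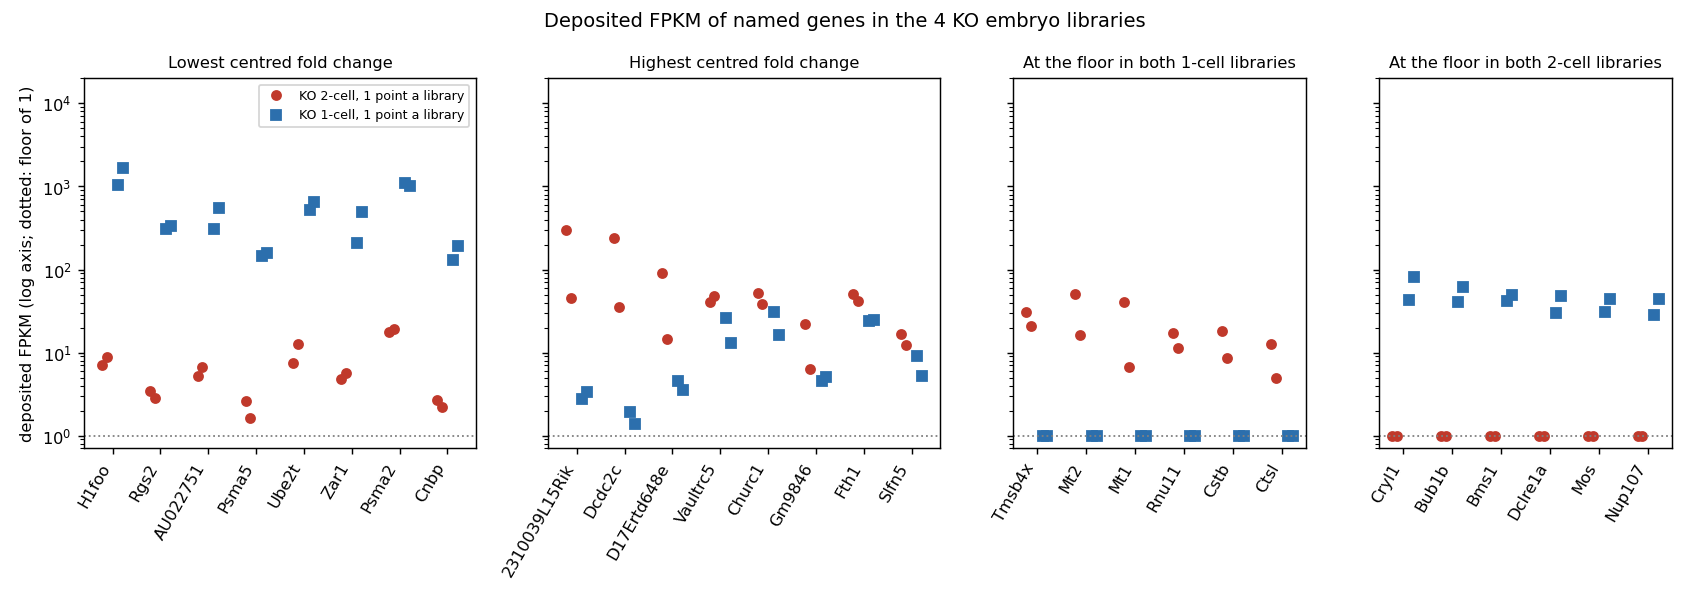
Deposited FPKM (log axis) of the genes with the lowest and the highest centred fold change among genes above the floor in all 4 KO embryo libraries, and of the highest genes gained from or lost to the floor of 1 FPKM (dotted). Each point is 1 library, with KO 2-cell in red circles left of KO 1-cell in blue squares. H1foo lies at 7.08 and 8.76 FPKM in KO 2-cell against 1053 and 1691 FPKM in KO 1-cell embryos, and the KO 2-cell points of 2310039L15Rik, Dcdc2c and D17Ertd648e lie furthest apart.

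Among named genes above the floor in all 4 libraries, 3 rose most. The gene 2310039L15Rik had 302 and 45.7 FPKM in KO 2-cell against 2.76 and 3.32 FPKM in KO 1-cell embryos, a centred change of 6.31 ± 0.77 (limma adjusted p = 0.000957). Dcdc2c, of the doublecortin domain family, had 239 and 35.0 FPKM in KO 2-cell against 1.94 and 1.37 FPKM in KO 1-cell embryos. D17Ertd648e had 90.1 and 14.5 FPKM in KO 2-cell against 4.56 and 3.51 FPKM in KO 1-cell embryos. In all 3 genes both KO 2-cell libraries were above both KO 1-cell libraries, and replicate 1 was over 6 times replicate 2. Without replicate 1 the centred change of 2310039L15Rik was 5.09 and without replicate 2 it was 7.79. For Dcdc2c the changes were 4.70 and 7.45, and for D17Ertd648e 3.39 and 5.96. The sizes depend on the common centred floor. Both KO 1-cell values of 2310039L15Rik and Dcdc2c were raised to it, as was KO 1-cell replicate 2 of D17Ertd648e.

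A second set of higher genes had KO 2-cell libraries that were close to each other. Fth1, the heavy chain of the iron store ferritin, had 50.9 and 41.4 FPKM in KO 2-cell against 24.0 and 24.4 FPKM in KO 1-cell embryos, a centred change of 2.995 ± 0.16 (limma adjusted p = 0.000149). Vaultrc5, an RNA of the vault particle, had 40.5 and 48.2 FPKM in KO 2-cell against 26.3 and 12.9 FPKM in KO 1-cell embryos. Churc1, a zinc-binding transcription regulator, had 52.3 and 38.3 FPKM in KO 2-cell against 30.6 and 16.3 FPKM in KO 1-cell embryos. Slfn5, of the interferon-responsive Schlafen family, had 16.9 and 12.5 FPKM in KO 2-cell against 9.08 and 5.19 FPKM in KO 1-cell embryos. These 4 rose as deposited as well, by 0.90 to 1.22 on the log2(FPKM + 1) scale. Gm9846 also rose, with 22.4 and 6.40 FPKM in KO 2-cell against 4.56 and 5.08 FPKM in KO 1-cell embryos.

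Lineage and pluripotency regulators had 4 higher and 2 lower calls among 13 tested, a share of higher calls near the 26.2% of all tested genes. With no common floor they had 10 higher and 2 lower of 15, in a setting that called 4414 of 8627 genes higher. Nanog, a pluripotency factor, had 7.45 and 5.02 FPKM in KO 2-cell against 2.80 and 1.83 FPKM in KO 1-cell embryos and was called on both scales (centred 2.14 ± 0.19, limma adjusted p = 0.000369). Klf4, another pluripotency factor, had 6.03 and 3.44 FPKM in KO 2-cell against 1.75 and 2.53 FPKM in KO 1-cell embryos, or 1.76 ± 0.22 centred. For Nanog and Klf4 both KO 1-cell values were raised to the common centred floor, so the sizes of their centred changes depend on it. Sall4, a zinc-finger factor also stored by oocytes, had 1.55 and 1.99 FPKM in KO 2-cell against 40.6 and 37.3 FPKM in KO 1-cell embryos. Of 25 genes of the actin and thymosin cytoskeleton, 11 were higher and 5 lower, with Actr3, of the Arp2/3 complex, at 42.1 and 42.3 FPKM in KO 2-cell against 64.9 and 76.0 FPKM in KO 1-cell embryos. Of 10 structural noncoding RNAs, 5 were higher and 0 lower, and the shares over all tested genes were 26.2% higher and 26.8% lower. Reverse transcription used oligo-dT primers, which select poly(A) tails. Whether the values of such RNAs, Rnu11 and Vaultrc5 included, follow their amounts was not tested. Rn45s, the ribosomal RNA precursor, had 1603 and 1325 FPKM in KO 2-cell against 3286 and 4838 FPKM in KO 1-cell embryos, while all 4 WT embryo libraries were at the floor. Rn45s was called lower as deposited (-1.45, limma adjusted p = 0.00545) and higher once centred (0.73 ± 0.14, limma adjusted p = 0.00581). The centred call ended when the 4 KO embryo libraries were fitted alone (limma adjusted p = 0.172).

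Of 23 tested genes known for a burst of transcription at the 2-cell stage, 2 were called higher and 5 lower in the KO passage. The shares over all tested genes were 26.2% higher and 26.8% lower. With no common floor 21 of 27 were higher and 5 lower, against 4414 higher of 8627 over all genes tested that way, so the count depends on the floor. The 2 higher members were present before. Fbxo15, an F-box protein of early embryos, had 7.31 and 4.11 FPKM in KO 2-cell against 10.8 and 14.5 FPKM in KO 1-cell embryos, a centred change of 0.88 (limma adjusted p = 0.0240) whose call ended with centring on genes above 5 FPKM (adjusted p = 0.0873) and without KO 2-cell replicate 1 (adjusted p = 0.0544), KO 1-cell replicate 1 (adjusted p = 0.0968) or KO 1-cell replicate 2 (adjusted p = 0.0974). Gm7056 had 8.43 and 6.64 FPKM in KO 2-cell against 15.8 and 20.9 FPKM in KO 1-cell embryos, or 0.83 centred (limma adjusted p = 0.00726). Gm8300 had 7.11 and 1.00 FPKM in KO 2-cell and the floor in KO 1-cell libraries, and Gm5039 had 7.05 and 1.00 FPKM in KO 2-cell and the floor in KO 1-cell libraries. Gm4850 had 3.42 and 1.00 FPKM in KO 2-cell against 1.00 and 1.12 FPKM in KO 1-cell embryos, with a WT 2-cell mean of 36.7 FPKM. These last 3 genes were detected in replicate 1 and close to the floor in replicate 2, and none of them was called. The lower members were transcripts already present at the 1-cell stage, such as Sp110, a nuclear body protein, at 8.009 and 5.42 FPKM in KO 2-cell against 64.4 and 78.5 FPKM in KO 1-cell embryos.

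The 115 genes gained in WT give a view of activation that KO values did not choose. In KO 2-cell embryos 45 of them, or 39.1%, were above the floor in both libraries, and 38, or 33.0%, were at it in both. Their median was 1.63 FPKM in replicate 1 and 1.00 FPKM in replicate 2 of KO 2-cell, and 1.00 FPKM in both KO 1-cell libraries. The WT 2-cell medians were 8.08 and 9.65 FPKM, where at least 5 FPKM was required. In the KO passage 28 of the 115 were called higher, a share near the 26.2% of all tested genes, and 1 was called lower. Of the 115, 70 were at the floor in both KO 1-cell libraries. Replicate 1 was the higher KO 2-cell library for 74 genes and replicate 2 for 3.

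**Figure D4:**
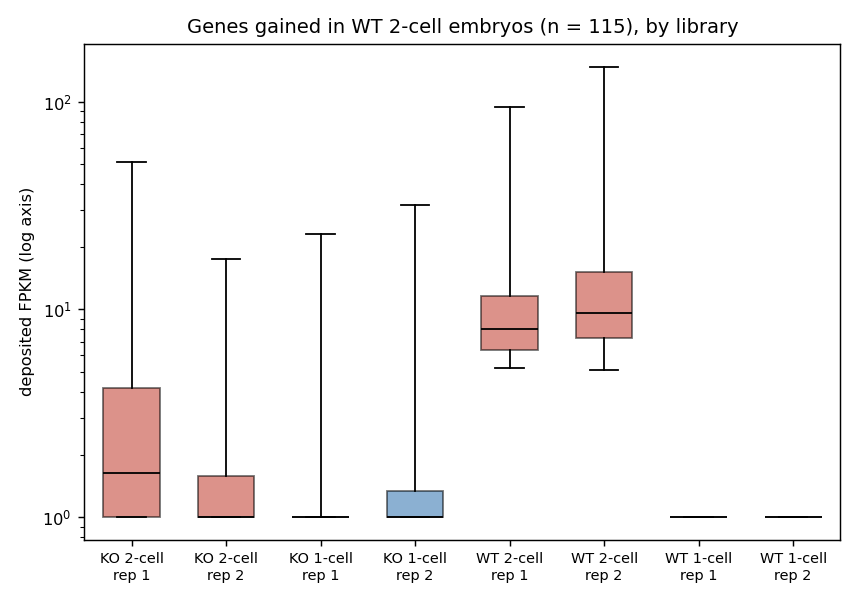
Deposited FPKM (log axis) in each embryo library of the 115 genes gained in WT 2-cell embryos; boxes span the quartiles with the median line, and whiskers reach the lowest and highest gene. The KO 2-cell medians are 1.63 and 1.00 FPKM beside 8.08 and 9.65 FPKM in WT 2-cell, whose values chose the genes.

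Whether the KO passage differed from the WT passage was tested as the difference of the 2 centred changes in 1 fit of the 8 embryo libraries. The KO change was above the WT change for 1202 of 6207 genes (19.4%) and below it for 1387 (22.3%), by limma at an adjusted p under 0.05. Of the 1627 genes called higher in the KO passage, the KO change was above the WT change for 765 and below it for 81. Of the 1661 called lower, it was below the WT change for 585 and above it for 105. The KO change both chose these genes and is part of the difference, so the 2 splits are largely set by the choice. The WT estimate had the same sign for 1120 of the 1627 and for 1262 of the 1661. The split between the 2 directions depends on how the genotypes are put on 1 scale: 46.4% of the calls were above WT here, 30.6% with the set above 5 FPKM, 57.0% among genes averaging at least 5 FPKM and 25.9% after undoing the number per library. Leaving out 1 WT library left 642 to 722 genes above and 728 to 905 below.

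Maternal transcripts whose centred change was higher in KO than in WT embryos included Dazl and Plac1l, both among the largest differences of this test. Decay and new transcription were not told apart. The centred change of Dazl was 0.55 in KO and -2.45 in WT, a difference of 3.01 ± 0.32 (limma adjusted p = 0.00125). Its WT means were 9.12 FPKM at the 2-cell and 103 FPKM at the 1-cell stage. Plac1l, an oocyte-expressed gene, had 92.7 and 85.9 FPKM in KO 2-cell against 512 and 417 FPKM in KO 1-cell embryos. Its difference was 2.92 ± 0.35 (limma adjusted p = 0.00179), with WT means of 5.35 FPKM at the 2-cell and 101.2 FPKM at the 1-cell stage. Of the 67 oocyte-specific and maternal-effect genes tested, 18 had a KO change above and 7 below the WT change. The shares over all tested genes were 19.4% above and 22.3% below. The difference did not pass the test for H1foo (-0.97 ± 0.45, limma adjusted p = 0.127) or for Zar1 (0.53 ± 0.48, limma adjusted p = 0.398), which does not show that the changes were equal.

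Genes whose change was lower in KO than in WT embryos included parts of the proteasome, splicing and ribosome groups. Psma5 had a difference of -4.24 ± 0.32 (limma adjusted p = 0.000526), with WT means of 4.95 FPKM at the 2-cell and 6.49 FPKM at the 1-cell stage. Psmb1, a subunit of the inner proteasome ring, had 3.73 and 5.93 FPKM in KO 2-cell against 72.0 and 75.5 FPKM in KO 1-cell embryos, and WT means of 16.4 FPKM at the 2-cell and 3.76 FPKM at the 1-cell stage. For both genes the KO 1-cell embryos thus held many times the WT 1-cell level. Snrpc, a protein of the U1 splicing particle, had 3.76 and 1.63 FPKM in KO 2-cell against 18.4 and 20.3 FPKM in KO 1-cell embryos, and WT means of 37.6 FPKM at the 2-cell and 3.68 FPKM at the 1-cell stage. By list, the KO change was below the WT change for 19 proteasome subunits of 33, 42 ribosomal proteins of 83, 42 nucleolar genes of 64 and 27 mitochondrial ribosomal proteins of 66. It was above the WT change for 1, 0, 1 and 3 members of these 4 lists. Over all tested genes it was below for 22.3% and above for 19.4%.

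**Figure D5:**
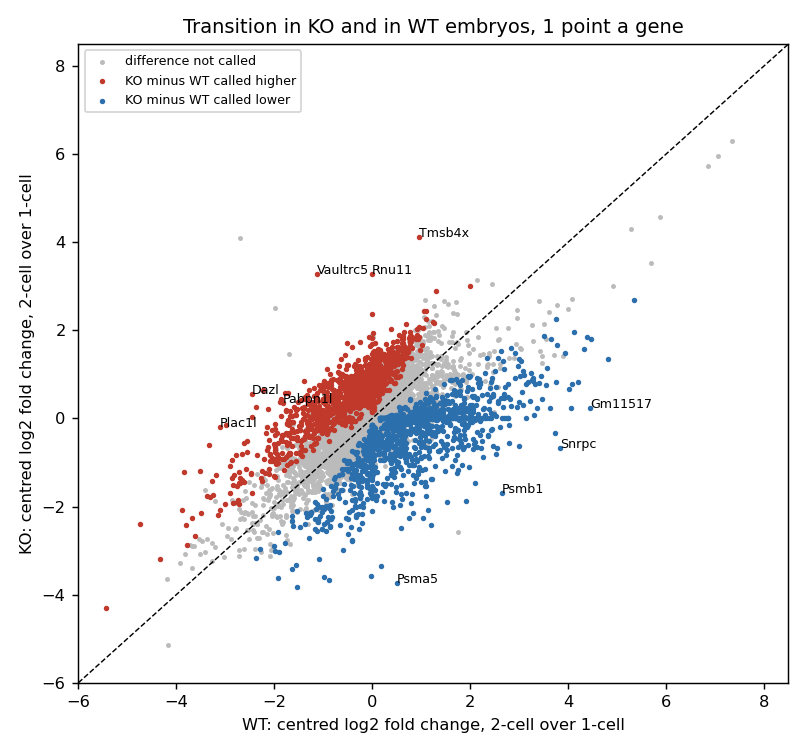
Centred log2 fold change of 2-cell over 1-cell in KO embryos (y axis) against that in WT embryos (x axis), 1 point a gene for 6207 genes, with equality dashed. Red and blue mark the 1202 genes with a KO change above and the 1387 with one below the WT change. Dazl and Plac1l lie above the line, and Psma5, Psmb1 and Snrpc below it.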

How the data were processed

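Polyadenylated RNA of 12 Smart-seq2 libraries, 2 for each genotype and stage, was deposited by the authors as 1 table of FPKM values. Per the labels' protocols, reverse transcription used oligo-dT primers and the lysis buffer held ERCC spike-in. The aligner TopHat2 2.1.1, the quantifier Cufflinks 2.2.1 and the build mm9 are named in the submitters' processing notes. The table held 11298 complete entries from 0610007C21Rik to Zc3h14, with 0 ERCC and 0 mitochondrially encoded entries; 1 incomplete entry was left out and genes later in the alphabet were not analysed here. The values give no read counts, so the depth behind them is unknown and intervals for counting error cannot be given. Strand is not stated, so overlapping and antisense genes cannot be told apart.

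The number per library was found from the decimals: all values above the floor were 6-digit FPKM times it, within 0.01 of the last digit. Centring used genes above 1 FPKM in all 4 embryo libraries of a genotype (4390 in KO, 4551 in WT), and values were raised to a common centred floor of 2.18. Centred fold changes against a group at that floor have no fixed size. Models were fitted in limma 3.58.1 (R 4.3.3) on log2(value + 1) with a variance trend, over 12 libraries as deposited and 8 embryo libraries when centred. Two-sided p-values were adjusted over all tested genes. Only genes above the floor in at least 2 libraries of the fit were tested, which left out 489 and 5091 genes. This filter was not in the plan and was added after the data were seen, because genes at the floor in every library have no variance, and the fit of every complete gene is an alternative. The fit was tested on simulated data.

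The gene lists and the genes described were chosen with earlier results of these data known. Named genes are Dazl, Tmsb4x and Pabpn1l, the 8 highest and 8 lowest centred calls among genes above the floor in all 4 KO libraries with a mean of at least 10 FPKM in the higher group, the 6 highest genes gained from and lost to the floor, up to 4 called members of each list, and the 5 highest and 5 lowest differences from WT, 1 of which is not reported here. Bmp15, Btg4, Omt2a, Omt2b, Pabpc1, Gm8300, Gm5039, Gm4850, Gm7056 and the marker genes lie outside this rule and were chosen after their values were seen. Promoters came from RefSeq, with both Mt1 and Mt2 matched by symbol. Alternatives changed the pseudocount, filter, variance model, scaling, floor, samples fitted and replicate block, and left out each library in turn.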

Additional observations from a re-analysis of the deposited data

Results flagged for a closer look

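The change between the stages differed between the genotypes, by the test of the difference itself, for 2589 genes, of which 10 are given here. They are Dazl, Tmsb4x and Pabpn1l and genes chosen by rule for the largest differences, which are extremes of the table. For Dazl the KO change minus the WT change was 3.01 on the centred log2 scale, for Pabpn1l 2.17 and for Plac1l 2.92. The Pabpn1l difference comes from a WT change of -1.82 and a KO change of 0.35 that was not called (limma adjusted p = 0.220), at KO levels of at most 4.55 FPKM and with both KO 1-cell values at the common centred floor. The KO change was 0.74 without KO 2-cell replicate 1 (limma adjusted p = 0.00333) and 0.61 with no common floor (limma adjusted p = 0.0302), both past the threshold, and 0.0023 without KO 2-cell replicate 2. Vaultrc5 had a difference of 4.42, with 40.5 and 48.2 FPKM in KO 2-cell against 26.3 and 12.9 FPKM in KO 1-cell embryos, and WT means of 5.01 FPKM at the 2-cell and 22.8 FPKM at the 1-cell stage.

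For Tmsb4x the difference was 3.18 and for Rnu11 3.27. Both sizes depend on the common floor, since both genes were at it in KO 1-cell and WT 1-cell libraries. How far oligo-dT priming captures Rnu11 and Vaultrc5 was not tested. Gm11517 had a difference of -4.22, with 1.63 and 1.00 FPKM in KO 2-cell and the floor in both KO 1-cell libraries, against a WT mean of 50.3 FPKM at the 2-cell stage and the floor at the 1-cell stage.

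The differences were -4.24 for Psma5, -4.33 for Psmb1 and -4.50 for Snrpc. For these 3 genes the KO 1-cell libraries were above both WT 1-cell libraries as deposited, by a factor that includes the number per library.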

How the results depend on the processing

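Higher calls on the deposited scale numbered 80, and 40 with a mean of at least 5 FPKM, 4093 under quantile normalisation and 38 to 172 when 1 library was left out; lower calls numbered 6897, 3173 under quantile normalisation and 6232 to 7241 when 1 library was left out. Centred higher calls numbered 1627, and 993 with a mean of at least 5 FPKM, 4414 with no common floor and 1176 to 1626 when 1 library was left out; centred lower calls stayed within 1.5 times 1661, with 1237 to 1726 when 1 library was left out. Differences from WT numbered 1202 above, and 735 with centring on genes above 5 FPKM, 33 on the deposited scale, 772 with every complete gene fitted and 663 after undoing the number per library. They numbered 1387 below, and 626 with a mean of at least 5 FPKM and 4462 on the deposited scale. Leaving out 1 library gave 642 to 1203 above and 728 to 1392 below, where a group left with 1 library is assumed to vary like the others. The cause was not tested, except that a filter tests fewer genes. With the replicate number as a block (replicate block), 80 and 6855 genes were called higher and lower as deposited, 1568 and 1624 centred, and 1058 above and 1317 below WT. The numbers are not shown to pair the samples: the deviations of replicate 1 in KO 2-cell and KO 1-cell correlated at 0.226 over 4390 genes.

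For named genes, 1993 of the values under an alternative kept direction and side of the threshold, 41 lost the call, 6 gained it and 3 reversed. The reversed values were 0.42 for Dazl and 0.74 for Pabpn1l as deposited under quantile normalisation, and 0.14 for Plac1l centred without KO 1-cell replicate 1, against -0.53 without KO 1-cell replicate 2. The 2 libraries a group and the floor of 1 FPKM limit what can be seen of weak genes. The fit of every complete gene and undoing the number per library were chosen after seeing the data.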
